A study of Mus musculus with 60 samples.

Results

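The mitochondrial ribosomal protein genes examined here were the 77 genes whose symbols begin with Mrpl or Mrps followed by a digit, without pseudogene symbols, and whose mean over all 60 libraries exceeded 1 ppm (the scale of the deposited values). All 77 symbols of this form passed that level, of 23126 genes in the table. Of these, 48 are named for the large subunit (Mrpl) and 29 for the small subunit (Mrps). The choice used symbols and overall level only, and no difference between groups. By role, 30 encode large subunit proteins with a bacterial homolog, 18 encode mitochondria-specific proteins under an Mrpl symbol, 18 encode small subunit proteins with a bacterial homolog, and 11 encode mitochondria-specific proteins under an Mrps symbol. Symbols do not always follow location: the proteins named for Mrps30 and Mrps18a sit in the large subunit.

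Mitochondria carry their own ribosome, which translates the few proteins encoded by mitochondrial DNA, all of them core subunits of the respiratory chain or of ATP synthase. The RNA of this ribosome is made inside the organelle, whereas every one of its proteins is encoded in the nucleus, translated in the cytosol and imported. Liver parenchymal cells are rich in mitochondria, and the transcription factors NRF1, GABP (an ETS family factor) and YY1 are known to bind promoters of many nuclear genes for mitochondrial proteins.

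Hepatocytes came from 20 male C57BL/6J mice aged 8 weeks, 10 sired by fathers that had drunk nicotine (NIC) and 10 sired by control fathers that had drunk tartaric acid (TA). The offspring themselves received no nicotine, and the question asked of these libraries was whether paternal nicotine changes liver gene expression. Cells were freed by collagenase perfusion, allowed to adhere for 3 h and cultured, so that they are primary cells outside the liver and not liver tissue. From 5 NIC and 5 TA animals, libraries were made at 0, 1, 3 and 21 h of culture and from a further culture listed as "21 h none". The labels give dexamethasone, a synthetic glucocorticoid, for all of these cultures and describe the 21 h and the 21 h none cultures alike, so that what differed between them is not known. Library titles carry dates without saying what was done then: date A for NIC animals 11 to 13 and TA animals 1 to 3, and date B for NIC animals 14 and 15 and TA animals 4 and 5. A further 2 NIC and 2 TA animals gave 2 h libraries with dexamethasone (date C), and 3 NIC and 3 TA animals gave 2 h libraries without it (date D). The 2 h libraries come from other animals and dates, and those of date C also have another unit, so that they enter no comparison of culture times.

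Values of date C are scaled read counts (CPM), with 1530794 to 2793007 reads a library. All other values are also scaled by transcript length, so levels of different genes are compared within those libraries only. There, depth is known only relative to the deepest library of each date. The NIC 21 h libraries of animals 11, 14 and 15 stood apart: their relative depth was 0.0242 to 0.0898, against 0.1338 to 1 in the other 47 time course libraries. Of the 77 genes, 3, 26 and 27 were listed at 0 in them, against 0 to 3 in the others. In these 3 libraries the summed Kupffer cell markers were 228 to 1437 ppm, against 118 to 405 ppm in the other 7 libraries of 21 h, and the summed stellate cell and fibroblast markers were 58.2 to 2033 ppm, against 7.93 to 88.2 ppm. Summed hepatocyte markers were 80601 to 161832 ppm in them and 111714 to 170540 ppm in the other 7. A NIC library of date B, of the 21 h none culture, carries the number of animal 11, although its title falls among those of animal 14, and was analysed under the number given (relative depth 0.1338). Many results of the members that rest on these libraries are given with and without them. Several counts and single values of other gene lists and of cell markers are given only with them. In bulk RNA, fewer cells of a type and less RNA per cell cannot be told apart.

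At 0 h, mean levels over the 10 animals spanned a 47.7-fold range, with a median gene at 27.8 ppm. Mrps21, a small subunit protein with a bacterial homolog, was highest at 149 ± 24.3 ppm (SD, n = 10), followed by Mrpl30 at 105.6 ppm, Mrpl24 at 89.7 ppm, Mrpl20 at 86.8 ppm and Mrpl42 at 77.6 ppm. Mrps21 and Mrpl30 were the only members above 100 ppm. The lowest were Mrps25 at 3.13 ppm, Mrpl19 at 4.03 ppm and Mrpl57 at 7.75 ppm, and 6 genes lay under 10 ppm. The genes are spread over 17 chromosomes, 10 of them on chromosome 11.

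Agreement among animals differed between genes. Mrpl18, the counterpart of a bacterial protein that binds 5S rRNA, lay between 60.9 and 104 ppm in all 10 libraries of 0 h. Mrpl12, a protein of the ribosomal stalk that also binds mitochondrial RNA polymerase, measured 78.6, 55.6, 124, 33.9 and 112 ppm in NIC hepatocytes at 0 h, against 18.2, 21.9, 97.6, 39.3 and 117 ppm in TA hepatocytes. Both groups held high and low animals and overlapped. Among TA animals at 0 h the SD on the log2 scale was largest for Mrps6 (1.71), Mrpl12 (1.20) and Mrpl22 (0.95). Mrps6, a small subunit protein with a bacterial homolog, was listed at 0 in TA animal 2 and at 19.9 ppm in TA animal 4.

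The summed level of the 77 genes was steady over the first hours of culture and spread out at 21 h. It ran from 2086 to 2908 ppm, with a median of 2577 ppm, over all 30 libraries of 0, 1 and 3 h. At 21 h its lowest, median and highest values were 1889, 2431 and 2795 ppm in NIC hepatocytes and 2111, 2345 and 3274 ppm in TA hepatocytes. The 21 h none culture gave 1973, 2874 and 3423 ppm in NIC hepatocytes and 2458, 3845 and 4834 ppm in TA hepatocytes. The groups overlapped at each of these times.

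**Figure D1:**
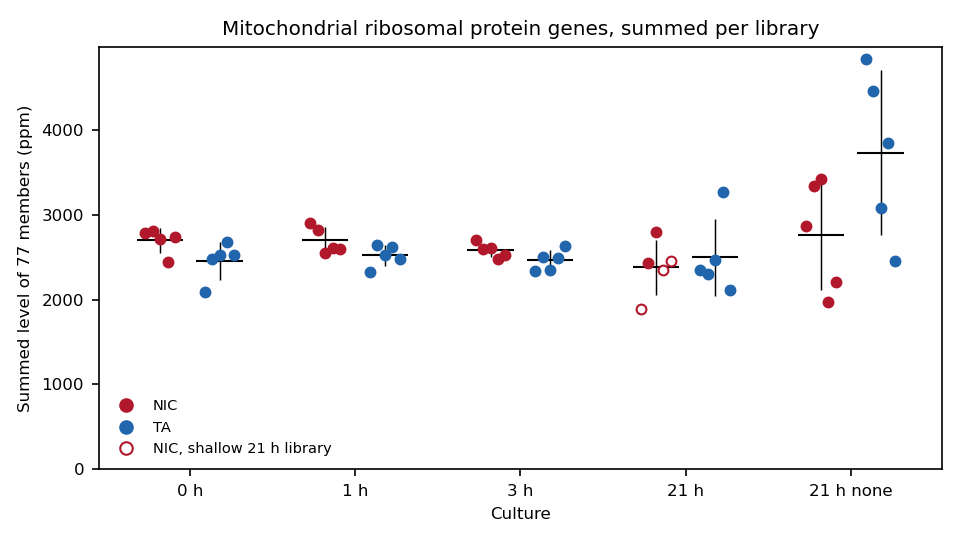
Summed level of the 77 mitochondrial ribosomal protein genes in each time course library (vertical axis, ppm) by culture (horizontal axis), NIC left of TA, with open symbols for the 3 NIC 21 h libraries of lowest depth. All libraries of 0, 1 and 3 h lie between 2086 and 2908 ppm, and the widest spread is at 21 h none, where TA libraries reach 4834 ppm.

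During the first 3 h of culture no member passed the test. Differences were tested with limma on log2(ppm + 1) over 11135 genes with the animal as a block, and a gene was called at a Benjamini-Hochberg adjusted p under 0.05. The spread of each gene was estimated over all cultures together, the 3 NIC 21 h libraries of low depth included. At 1 h against 0 h, 0 of 77 were called (0.00898% of all genes tested), 1 had an unadjusted p under 0.05 (3.63% of all genes), and the median log2 difference was 0.03, against -0.07 over all genes. Mrps33, a mitochondria-specific protein of the small subunit, had the smallest p, with a log2 difference of 0.41 ± 0.17 (SE). At 3 h against 0 h, 0 were called (0.108% of all genes, 0.0808% higher and 0.0269% lower) and 1 had an unadjusted p under 0.05 (8.92%), with a median of -0.02, against -0.09 over all genes. That gene was Mrpl10, a stalk base protein with a bacterial homolog, at -0.32 ± 0.15. With array weights, which give less weight to noisier libraries, 1 member was called at 3 h, lower, where 11.3% of all genes were.

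At 21 h against 0 h, 4 of the 77 genes were higher and 19 lower. Over all genes 50.6% were called, 29% higher and 21.6% lower. The median log2 difference of the members was -0.35, against 0.12 over all genes, and 20 of 77 differences were positive. Among the large subunit proteins with a bacterial homolog, 2 were higher and 10 lower of 30. Of the 18 mitochondria-specific Mrpl proteins 0 were higher and 4 lower, of the 18 Mrps proteins with a bacterial homolog 1 was higher and 3 lower, and of the 11 mitochondria-specific Mrps proteins 1 was higher and 2 lower. Without the 3 NIC 21 h libraries of low depth the counts were 9 higher and 11 lower (46.5% of all genes called in either direction) and the median was -0.12. Of the 23 calls, 10 were also made without those libraries, 3 higher and 7 lower. In TA hepatocytes alone, where these libraries have no part, 7 were higher and 7 lower (42.4%), with a median of 0.06. Within date A 5 were higher and 8 lower (41.1%), and within date B 2 were higher and 15 lower (39.9%).

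Mrps30 encodes a mitochondria-specific protein that in mammals lies in the large subunit. Its level was 21.8, 27.8, 38.4, 24.4 and 34.2 ppm in NIC hepatocytes and 41.2, 35, 34.2, 59.1 and 33 ppm in TA hepatocytes at 21 h. At 0 h it was 9.72, 19.1, 20.2, 16.6 and 18 ppm in NIC hepatocytes and 9.02, 14.6, 10.7, 16.2 and 10.8 ppm in TA hepatocytes. Every library of 21 h exceeded every library of 0 h, which held for Mrps30 alone among the members (5.34% of all genes separated in either direction). The log2 difference was 1.21 ± 0.18 (limma, adjusted p = 1.14e-07), and Mrps30 was higher in 10 of 10 animals (exact sign-flip test over animals, 2-sided p = 0.00195, the smallest 10 animals allow).

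The other 3 higher genes changed less. Mrpl9, a large subunit protein with a bacterial homolog, had lowest, median and highest values of 34, 45.2 and 55.9 ppm at 21 h, against 19.3, 32.1 and 53 ppm at 0 h, with overlap. Its log2 difference was 0.46 ± 0.13 (limma, adjusted p = 0.00217), and it was higher in 9 of 10 animals (exact p = 0.00977). Mrps18b, a mammalian relative of bacterial S18, had 33, 60.5 and 176 ppm at 21 h and 31.7, 44.5 and 62 ppm at 0 h. Mrps18b overlapped between the times and differed by 0.63 ± 0.21 (limma, adjusted p = 0.0119). Within date A that difference was 0.30 (adjusted p = 0.32), and within date B 1.13 (adjusted p = 0.0017). Mrpl17, a large subunit protein near the exit of the peptide tunnel in bacteria, had 8.08, 10.4 and 18.9 ppm at 21 h and 5.34, 8.65 and 10.7 ppm at 0 h. It differed by 0.43 ± 0.16 (limma, adjusted p = 0.022), a call that was not made without the 3 libraries of low depth (0.41, adjusted p = 0.055).

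Mrpl18 was the most clearly lower gene at 21 h. Its lowest, median and highest values were 28.4, 43 and 65.1 ppm at 21 h, against 60.9, 69.7 and 104 ppm at 0 h. Only the TA library of animal 5 at 21 h lay within the range of 0 h. The log2 difference was -0.78 ± 0.12 (limma, adjusted p = 8.14e-07), and Mrpl18 was lower in 9 of 10 animals (exact p = 0.00391). Mrps21 had 40.4, 98.1 and 268 ppm at 21 h and 111, 147 and 182 ppm at 0 h, with a log2 difference of -0.74 ± 0.18 (limma, adjusted p = 0.000667). The 268 ppm belongs to NIC animal 15, one of the libraries of low depth, and the other 9 libraries of 21 h, at 40.4 to 109 ppm, all lay below those of 0 h. Mrpl51, a mitochondria-specific large subunit protein, differed by -1.07 ± 0.32 (limma, adjusted p = 0.00451) and by -0.63 without the libraries of low depth. It was listed at 0 in NIC animal 14 and lower in 9 of 10 animals (exact p = 0.0176). Mrpl27, a large subunit protein with a bacterial homolog, was lower in 10 of 10 animals (log2 difference -1.22, exact p = 0.00195), but was not called without the libraries of low depth (-0.46, limma, adjusted p = 0.0768). Exact p-values were computed for each of the 77 genes and were not adjusted.

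**Figure D2:**
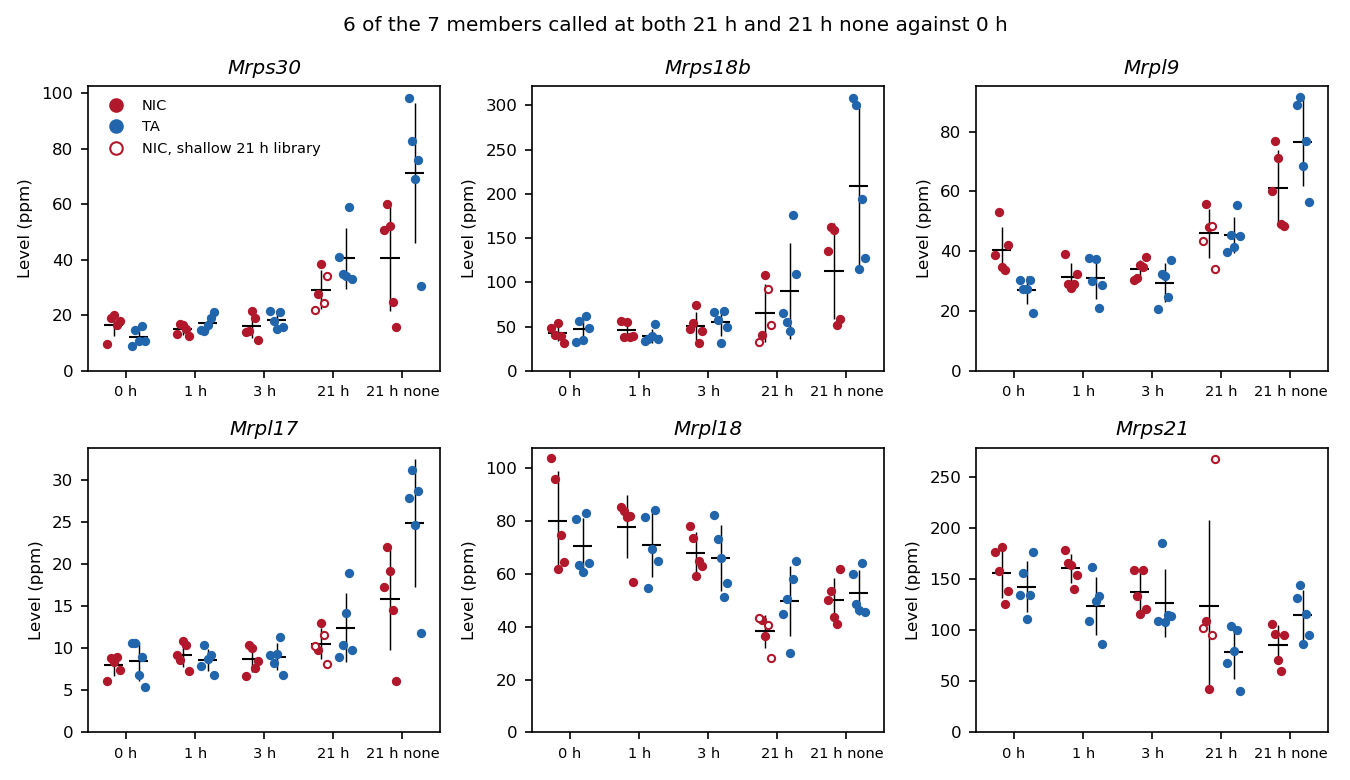
Levels of Mrps30, Mrps18b, Mrpl9, Mrpl17, Mrpl18 and Mrps21 in each time course library (vertical axis, ppm) by culture (horizontal axis), NIC left of TA, with bars for the mean ± SD of each group (n = 5) and open symbols for the 3 NIC 21 h libraries of lowest depth. Mrps30 at 21 h lies above every 0 h library, whereas Mrps21 at 21 h lies below every 0 h library except for the open symbol at 268 ppm.

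Larger negative values went with zeros in the libraries of low depth. Mrpl42, a mitochondria-specific large subunit protein, differed by -1.85 ± 0.37 at 21 h against 0 h (limma, adjusted p = 4.36e-05) and by -0.68 without those libraries (adjusted p = 0.016). Mrpl14, at the interface of the subunits in bacteria, differed by -1.56 and by -0.62 without them. Mrps15, a small subunit protein with a bacterial homolog, differed by -1.53, and by -0.51 without them, where it was no longer called (adjusted p = 0.079). Mrpl4, a large subunit protein with a bacterial homolog, differed by -1.53 and by -1.02 without them (adjusted p = 0.023). Mrpl55, Mrpl3, Mrpl34, Mrps28, Mrpl2, Mrps36, Mrps31, Mrpl50, Mrpl15, Mrpl39 and Mrpl28 made up the rest of the lower genes, with log2 differences of -1.39 to -0.40. Of these 11, Mrpl39 alone was called without the libraries of low depth (-0.47, limma, adjusted p = 0.0287), and the other 10 then lay between -0.48 (Mrpl34) and -0.07 (Mrps28), for example Mrpl55 at -0.26 and Mrpl3 at -0.12. Mrps36, which has been found as an adaptor of the 2-oxoglutarate dehydrogenase complex, differed by -1.10 ± 0.38 (limma, adjusted p = 0.0127), and by -0.27 without those libraries (adjusted p = 0.471). In the main comparison and in each of 5 alternatives (without the 3 libraries, TA libraries alone, median-of-ratios scaling, no animal block, array weights), Mrps30 and Mrpl9 were called higher and Mrpl18, Mrps21 and Mrpl51 lower. NIC libraries alone and single dates were not among these 5.

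The promoters of the 6 genes plotted above are printed to show the letters in front of genes that were higher or lower in culture. Each runs from 250 bases before to 50 bases after the start of a RefSeq transcript on GRCm38.p6, and 68 of the 77 genes had such a sequence. The start used below for genes on the opposite strand can differ. For Mrpl18 it is chr17:12916345, and the whole printed window of Mrpl18 lies downstream of it. Capitals mark CCGGAAG (the ETS core), AAGATGGC (a YY1 motif) and GCGCATGC (part of the NRF1 motif), searched on both strands, so that CTTCCGG, GCCATCTT and GCATGCGC are marked as well. The coordinates are chr13:118387203-118387502 (minus strand) for Mrps30, chr17:35916391-35916690 (minus) for Mrps18b, chr3:94443086-94443385 (plus) for Mrpl9, chr7:105811038-105811337 (minus) for Mrpl17, chr17:12916042-12916341 (minus) for Mrpl18 and chr3:95871465-95871764 (minus) for Mrps21.
Mrps30: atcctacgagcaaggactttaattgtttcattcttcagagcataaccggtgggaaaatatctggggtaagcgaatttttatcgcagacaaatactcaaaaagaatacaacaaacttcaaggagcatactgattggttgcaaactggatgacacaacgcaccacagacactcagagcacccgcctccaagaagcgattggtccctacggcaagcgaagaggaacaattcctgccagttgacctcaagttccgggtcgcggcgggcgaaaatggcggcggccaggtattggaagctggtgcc
Mrps18b: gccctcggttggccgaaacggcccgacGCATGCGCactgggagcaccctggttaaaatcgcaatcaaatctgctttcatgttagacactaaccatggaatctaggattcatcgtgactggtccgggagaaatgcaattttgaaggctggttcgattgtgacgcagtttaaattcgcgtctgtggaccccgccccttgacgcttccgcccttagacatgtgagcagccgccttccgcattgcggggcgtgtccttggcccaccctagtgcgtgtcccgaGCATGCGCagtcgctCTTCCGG
Mrpl9: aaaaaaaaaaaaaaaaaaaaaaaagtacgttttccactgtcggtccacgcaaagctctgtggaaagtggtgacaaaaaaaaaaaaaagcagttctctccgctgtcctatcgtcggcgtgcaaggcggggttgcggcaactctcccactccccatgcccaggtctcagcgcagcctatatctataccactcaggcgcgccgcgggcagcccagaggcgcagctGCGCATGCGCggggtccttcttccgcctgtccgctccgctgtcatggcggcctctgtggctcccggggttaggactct
Mrpl17: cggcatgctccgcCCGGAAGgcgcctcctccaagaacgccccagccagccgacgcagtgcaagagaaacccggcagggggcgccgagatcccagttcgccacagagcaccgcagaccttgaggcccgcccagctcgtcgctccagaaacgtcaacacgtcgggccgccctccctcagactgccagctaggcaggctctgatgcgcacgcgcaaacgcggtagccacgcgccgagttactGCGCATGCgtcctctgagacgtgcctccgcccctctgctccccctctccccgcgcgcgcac
Mrpl18: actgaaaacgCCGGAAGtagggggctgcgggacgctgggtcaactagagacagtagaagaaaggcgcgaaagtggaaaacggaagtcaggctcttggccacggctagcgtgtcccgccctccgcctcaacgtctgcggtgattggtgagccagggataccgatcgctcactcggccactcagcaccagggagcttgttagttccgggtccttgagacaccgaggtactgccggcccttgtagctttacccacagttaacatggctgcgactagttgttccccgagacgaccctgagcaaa
Mrps21: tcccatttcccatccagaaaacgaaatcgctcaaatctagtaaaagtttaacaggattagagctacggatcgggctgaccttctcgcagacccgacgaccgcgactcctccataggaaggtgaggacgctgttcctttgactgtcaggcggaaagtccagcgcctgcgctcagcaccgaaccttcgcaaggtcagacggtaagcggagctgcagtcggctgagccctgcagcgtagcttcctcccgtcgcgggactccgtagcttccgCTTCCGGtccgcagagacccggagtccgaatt
Mrps18b and Mrpl17 held the ETS core and the NRF1 letters, Mrpl9 held the NRF1 letters on both strands at 1 place, where the matches overlap, Mrpl18 and Mrps21 held the ETS core, and the window of Mrps30 held none of these letters.

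Over all members with a promoter, 25 of 68 held CCGGAAG on either strand (36.8%), against 20.9% of 8545 tested genes with a promoter and 9.9% of 27025 symbols. AAGATGGC was present in 12 (17.6%), against 5.6% and 3.2%, with 0 members in which it overlapped the ETS letters. GCGCATGC was present in 8 (11.8%), against 6.2% and 3.0%. Letters of other common promoter motifs were less frequent among members than among tested genes: GGGCGG, an Sp1 motif, was in 34 (50.0%), against 67.9% of tested genes, TATAAA in 5 (7.4%), against 9.4%, and CACGTG in 5 (7.4%), against 12.1%. A protein-coding gene started on the opposite strand within 1000 bp of the start in 33 of 77 members (42.9%), against 16.8% of tested genes and 10.8% of all protein-coding genes. Mrpl18 faces Tcp1, Mrps18b faces Ppp1r10, Mrps7 faces Gga3 and Mrps12 faces Sars2. The strand setting used in counting is not given in the sources used here, so reads of overlapping neighbors cannot be told apart.

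At 21 h none against 0 h, 21 of the 77 genes were higher and 7 lower. Over all genes 64% were called, 46.9% higher and 17% lower. The median log2 difference of the members was 0.31, against 0.49 over all genes. The sign of the members' median depended on the scaling: with median-of-ratios scaling the median of all genes was 0.10, that of the members was -0.15, and 9 members were higher and 17 lower. Shares of all genes called with that scaling are not given here or below. Counts with that scaling therefore do not by themselves set the members apart from all genes. By role, 11 were higher and 2 lower of the 30 large subunit proteins with a bacterial homolog, 3 and 1 of the 18 mitochondria-specific Mrpl proteins, 2 and 4 of the 18 Mrps proteins with a bacterial homolog, and 5 and 0 of the 11 mitochondria-specific Mrps proteins. In NIC hepatocytes alone 5 were higher and 3 lower (25.7% of all genes called in either direction), and in TA hepatocytes alone 40 were higher and 1 lower (67.2%). Within date A 38 were higher and 2 lower (69.3%), and within date B 3 were higher and 1 lower (22.3%). The 3 NIC 21 h libraries are not in this contrast but share its estimate of the spread, and without them 31 were higher and 8 lower (71%).

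Mrps30, Mrpl9, Mrps18b and Mrpl17 had the smallest p among the genes higher at 21 h none. This comparison shares its 0 h libraries with that of 21 h. Mrps30 measured 50.9, 60.2, 52.1, 24.7 and 15.8 ppm in NIC hepatocytes and 98.2, 82.8, 69, 75.9 and 30.7 ppm in TA hepatocytes at 21 h none. All lay above the 0 h libraries except NIC animal 15, at 15.8 ppm. The log2 difference was 1.76 ± 0.18 (limma, adjusted p = 3.39e-12), and 1.31 with median-of-ratios scaling. Mrps18b measured 135, 162, 159, 51.4 and 58.7 ppm in NIC hepatocytes and 308, 301, 115, 194 and 127 ppm in TA hepatocytes. Its lowest values were the NIC libraries of date B, at or below the highest value of 0 h (62 ppm). Mrps18b differed by 1.65 ± 0.21 (limma, adjusted p = 4.02e-09) and was higher in 9 of 9 animals with both cultures (exact p = 0.00391, the smallest 9 animals allow).

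Mrpl9 and Mrpl17 were the others of smallest p named above. Their promoters hold the NRF1 letters, as does that of Mrps18b, whereas the window of Mrps30 held none of the marked letters. Mrpl9 had 48.5, 69.9 and 91.6 ppm (lowest, median and highest) at 21 h none, against 19.3, 32.1 and 53 ppm at 0 h, and differed by 1.03 ± 0.13 (limma, adjusted p = 1.38e-09). Mrpl17 had 6.1, 20.6 and 31.2 ppm at 21 h none and 5.34, 8.65 and 10.7 ppm at 0 h, and differed by 1.13 ± 0.16 (limma, adjusted p = 3.28e-08). Only the NIC library of animal 15, at 6.1 ppm, lay within the 0 h range of Mrpl17. Among members with a promoter, GCGCATGC was in 5 of 19 that were higher at 21 h none and in 3 of 49 others. The other letters were less frequent in the 19 than in the 49: CCGGAAG in 31.6% and 38.8%, AAGATGGC in 10.5% and 20.4%, GGGCGG in 42.1% and 53.1%, and TATAAA and CACGTG each in 0% and 10.2%. These shares are a description on which no test was run. The split uses calls from these same data, and fewer members were called higher with median-of-ratios scaling.

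Further genes higher at 21 h none were Mrpl45, which holds the ribosome at the inner membrane in mammals (log2 difference 1.16 ± 0.21, limma, adjusted p = 3.09e-06), Mrps33 (0.83 ± 0.18), Mrpl19 (1.14 ± 0.24), Mrpl40 (0.93 ± 0.21), Mrps25 (0.91 ± 0.23) and Mrpl32 (0.77 ± 0.20). Mrps25 and Mrpl19 had the lowest levels of all members at 0 h. Mrpl19 had 2.28, 10.5 and 24.9 ppm at 21 h none and 2.39, 3.72 and 5.77 ppm at 0 h, with overlap. Mrps26, Mrpl1, Mrpl47, Mrps23, Mrpl30, Mrpl44, Mrpl35, Mrpl13, Mrps6, Mrpl11 and Mrpl33 were also higher, by 0.42 to 1.26. Mrpl44, a mitochondria-specific protein mutated in a human cardiomyopathy, differed by 0.67 ± 0.22 (limma, adjusted p = 0.00677), and by 0.23 with median-of-ratios scaling (adjusted p = 0.3). Those called higher in the main comparison and all 5 alternatives were Mrps30, Mrpl9, Mrps18b, Mrpl17, Mrpl45, Mrpl19, Mrpl40, Mrps25 and Mrps26. As above, the 5 leave out NIC libraries alone and single dates.

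Lower at 21 h none were Mrpl18, Mrps21, Mrps7, Mrpl53, Mrps12, Mrpl4 and Mrps18c. Mrpl18 had 41, 49.4 and 64 ppm at 21 h none, against 60.9, 69.7 and 104 ppm at 0 h, with a log2 difference of -0.53 ± 0.12 (limma, adjusted p = 0.000234) and a lower value in 9 of 9 animals (exact p = 0.00391). It was the only one called lower in all 5 alternatives. Mrps21 differed by -0.60 ± 0.18 (limma, adjusted p = 0.00379) and was lower in 9 of 9 animals. Mrps12, a protein of the decoding center, had 0, 30.1 and 58.2 ppm at 21 h none and 24.8, 40.5 and 57.7 ppm at 0 h. Its difference was -0.79 ± 0.31 (limma, adjusted p = 0.0258), and its only 0 was the date B library listed as NIC animal 11.

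**Figure D3:**
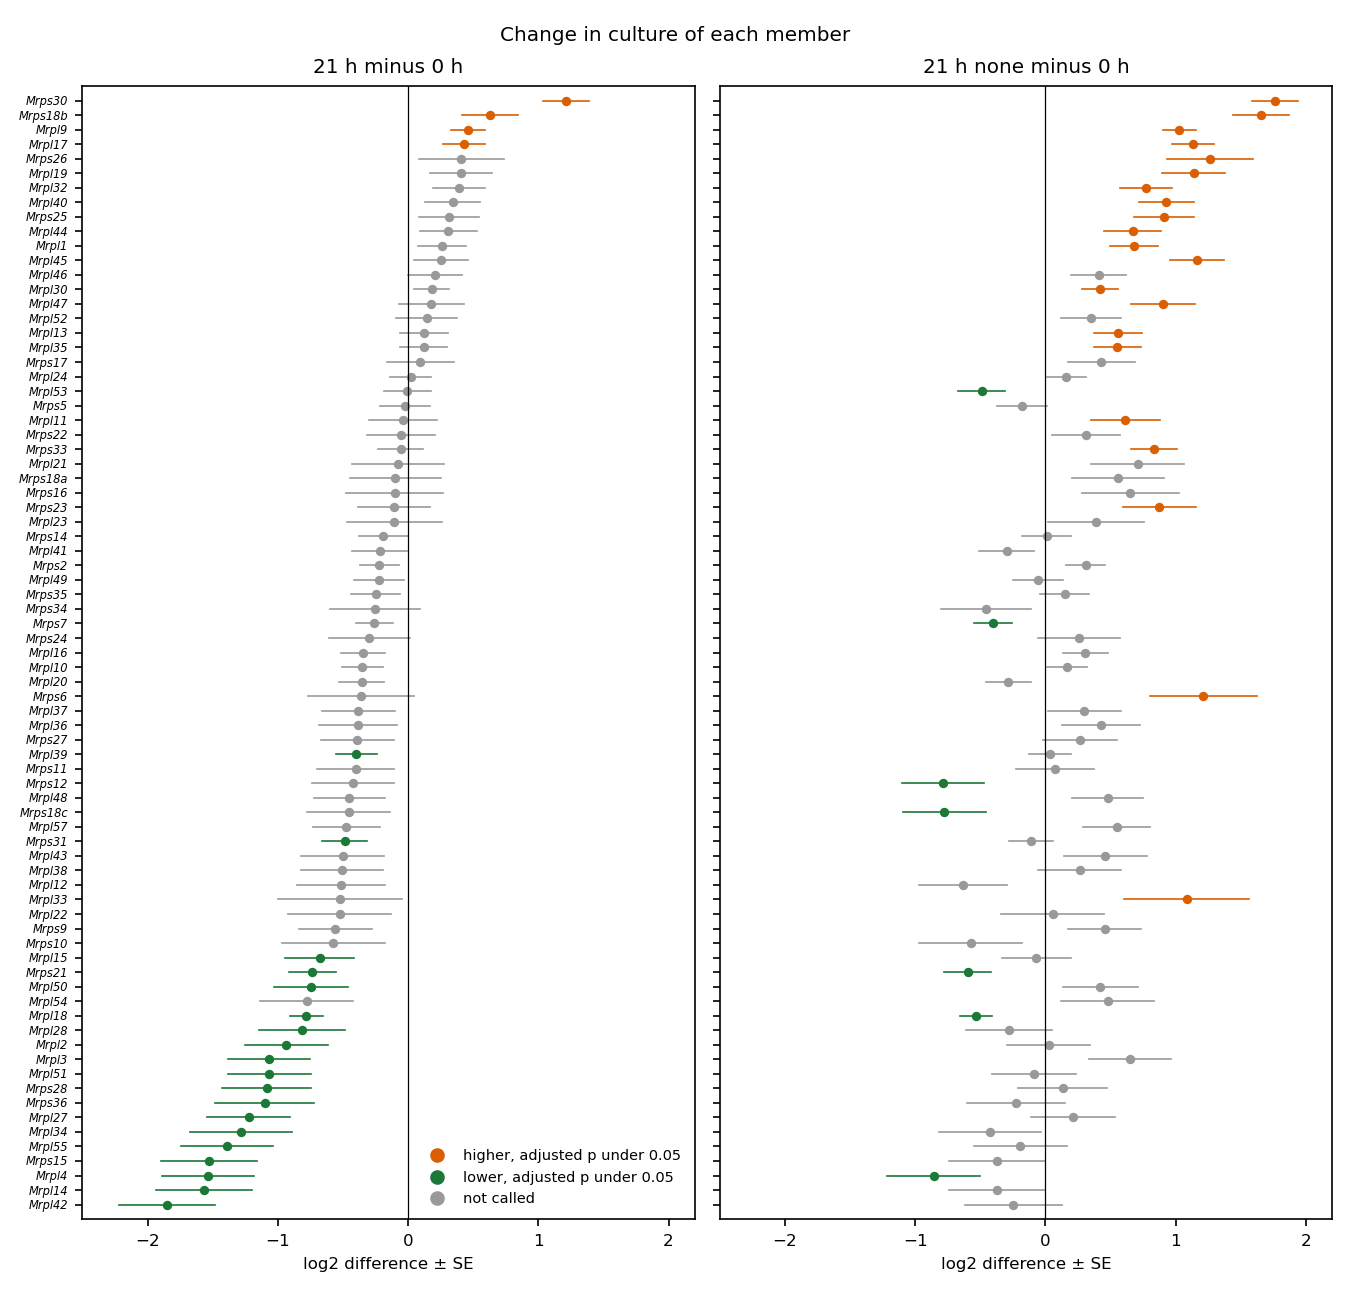
Log2 difference ± SE (horizontal axis) of each of the 77 genes at 21 h against 0 h and at 21 h none against 0 h, 1 line per gene, colored by whether it was called higher, lower or neither (limma, adjusted p under 0.05). At 21 h 4 genes are higher and 19 lower, and at 21 h none 21 are higher and 7 lower.

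Between 21 h none and 21 h, cultures of the same length, 34 members were higher and 1 lower, where 26.5% of all genes were called, 23.1% higher and 3.4% lower. The median of the members was 0.60, against 0.31 over all genes. With median-of-ratios scaling 9 were higher and 2 lower, with a median of 0.32, against 0.05 over all genes. Without the 3 libraries of low depth 19 were higher and 0 lower (24.7% of all genes called in either direction), with a median of 0.34, equal to that of all genes to 2 decimals. In NIC hepatocytes alone 2 were higher and 0 lower (1.31%), and in TA hepatocytes alone 29 were higher and 0 lower (29.4%). Within date A 47 were higher and 0 lower (57.3%), and within date B 12 were higher and 0 lower (9.01%).

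Mrpl3, a large subunit protein with a bacterial homolog and a cause of human mitochondrial disease when mutated, had 18.2, 37, 21, 6.43 and 8.97 ppm in NIC hepatocytes and 45.8, 52.6, 25.7, 50.1 and 25.3 ppm in TA hepatocytes at 21 h none. At 21 h it had 4.54, 12.3, 21.7, 0 and 0 ppm in NIC hepatocytes and 10.2, 7.92, 7.8, 30.8 and 15.1 ppm in TA hepatocytes. Both zeros were libraries of low depth, and the cultures overlapped. The log2 difference was 1.71 ± 0.31 (limma, adjusted p = 0.000299), and 0.79 without those libraries (adjusted p = 0.017). Mrps33 differed by 0.89 ± 0.18, Mrps18b by 1.02 ± 0.21, Mrpl27 by 1.43 ± 0.32, Mrpl9 by 0.57 ± 0.13, Mrpl45 by 0.91 ± 0.21, Mrpl17 by 0.70 ± 0.16, Mrpl42 by 1.60 ± 0.37, Mrpl50 by 1.17 ± 0.29 and Mrpl57 by 1.02 ± 0.26. Without the libraries of low depth Mrpl42 was not called (0.45, limma, adjusted p = 0.151), and Mrpl27, Mrpl50 and Mrpl57 differed by 0.65, 0.76 and 0.59. The log2 difference of Mrps18b was 1.74 within date A and -0.06 within date B. Mrpl53, a mitochondria-specific large subunit protein, was the gene called lower, at -0.48 ± 0.18 (limma, adjusted p = 0.0395), and was not called without the libraries of low depth (-0.23, adjusted p = 0.4). Called higher in the main comparison and in all 5 alternatives were Mrpl3, Mrpl17, Mrpl27, Mrpl45, Mrpl50, Mrps18b and Mrps33. The 5 leave out NIC libraries alone and single dates. In NIC libraries alone none of these genes was called, with adjusted p from 0.0557 (Mrps33) to 0.357 (Mrpl17) in limma. Within date B Mrpl3 and Mrpl27 were called and the others were not.

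Other genes of mitochondrial gene expression, taken from fixed lists, were counted in the same 3 comparisons. No test compared a list with all genes, of which 29% were higher and 21.6% lower at 21 h, and 46.9% higher and 17% lower at 21 h none. Of 10 regulators of mitochondrial biogenesis, 5 were higher and 0 lower at 21 h, and 7 higher and 1 lower at 21 h none. Nrf1, a transcription factor of nuclear genes for mitochondria, differed by 1.49 ± 0.24 at 21 h and by 1.71 ± 0.24 at 21 h none (limma, adjusted p = 9.75e-07 and 2.83e-08). Pprc1, a coactivator related to PGC-1, differed by 1.60 and 1.92, and Gabpb1, a subunit of GABP, by 1.27 and 1.54. Without the libraries of low depth the counts at 21 h were again 5 higher and 0 lower.

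Of 13 mitochondrial translation factors, 0 were higher and 7 lower at 21 h, and 0 higher and 6 lower without the libraries of low depth. Tufm, the elongation factor that brings aminoacyl-tRNA to the ribosome, differed by -1.08 ± 0.17 (limma, adjusted p = 6.04e-07), Gfm1, the translocation factor, by -1.02 ± 0.17, Guf1 by -0.99 and Taco1, an activator of translation of cytochrome oxidase subunit I, by -1.04. In TA hepatocytes alone 1 was higher and 3 lower. Against 0 h, 2 translation factors were higher and 3 lower at 21 h none. Of 17 mitochondrial aminoacyl-tRNA synthetases, 0 were higher and 6 lower at 21 h (for example Nars2 at -1.14), 2 higher and 2 lower at 21 h without the libraries of low depth, and 6 higher and 1 lower at 21 h none. Lrpprc, which keeps mitochondrial mRNAs stable, was lower by 1.60 ± 0.15 on the log2 scale at 21 h (limma, adjusted p = 6.05e-13). Its list, mitochondrial DNA transcription and RNA stability, had 3 higher and 2 lower of 20 at 21 h and 8 higher and 1 lower at 21 h none.

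Of 24 assembly factors of the mitochondrial ribosome, 11 were higher and 1 lower at 21 h none against 0 h, where 46.9% and 17% of all genes were. The RNA helicase Ddx28 differed by 1.97 ± 0.34, Trub2 by 1.58 ± 0.27 and Rpusd4 by 1.69 ± 0.32. At 21 h 3 assembly factors were higher and 4 lower, Nsun4 by -1.28 ± 0.21. With median-of-ratios scaling 6 were higher and 2 lower at 21 h none. For mitochondrial DNA maintenance 4 of 9 were higher and 1 lower at 21 h, and 6 higher and 0 lower at 21 h none (Rrm2b, a ribonucleotide reductase subunit, 1.67 ± 0.23). Of 7 mitochondrial ribosomal proteins on a list of those with other names, Mrpl57 among them, 0 were called at 21 h and 2 were higher at 21 h none (Dap3 0.89 ± 0.21 and Ptcd3 0.63 ± 0.15). Between the 21 h none and 21 h cultures, 3 biogenesis regulators, 6 translation factors, 14 assembly factors, 11 synthetases, 10 genes of transcription and RNA stability, 4 of DNA maintenance and 3 proteins with other names were higher, and 0 of any of these lists lower, where 23.1% of all genes were higher and 3.4% lower. Without the libraries of low depth the counts higher were 2, 7, 8, 7, 7, 3 and 2 in the same order of lists, with 0 lower. Mitochondrially encoded mRNAs and rRNAs were not analysed here.

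Markers of cell types moved in the same comparisons. Hepatocyte markers were lower in both late cultures (9 of 11 at 21 h and 9 of 11 at 21 h none, for example Cps1, of the urea cycle, at -1.73 and -1.95), with 0 higher. Of 10 Kupffer cell markers, 6 were higher and 3 lower at 21 h against 0 h, 2 higher and 4 lower at 21 h none against 0 h, and 0 higher and 7 lower at 21 h none against 21 h. Of 12 sinusoidal endothelial markers 3 were higher and 3 lower at 21 h, and 3 higher and 4 lower at 21 h none. Of 5 stellate cell and fibroblast markers 1 was higher in each late culture, of 3 biliary markers 1 at 21 h and 3 at 21 h none, and of 2 blood cell markers 1 was lower in each. Of 4 small noncoding RNAs 0 were called in either late culture against 0 h. Marker counts that involve the 21 h culture are given only with the 3 libraries of low depth included. The part of these shifts in the values of the members was not tested.

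Between NIC and TA hepatocytes over all 60 libraries, 0 of the 77 genes were called, where 0.198% of all genes were (0.0629% lower in NIC hepatocytes). Of the members 4 had an unadjusted p under 0.05, all lower in NIC hepatocytes, and 14.6% of all genes had one. The median log2 difference was -0.10, against -0.11 over all genes, and 58 of 77 differences were negative. Since the median over all genes was negative, most genes differed in that direction as well. Without the 21 h and 21 h none cultures the median was 0.05. Smallest in p was Mrps2, a small subunit protein with a bacterial homolog, at -0.30 ± 0.10 (limma, adjusted p = 0.181), followed by Mrpl19 at -0.47 ± 0.17 (adjusted p = 0.2) and Mrpl43 at -0.49 ± 0.22 (adjusted p = 0.298). In the other direction they were Mrpl9 at 0.13 ± 0.09, Mrps14 at 0.16 ± 0.13 and Mrps7 at 0.10 ± 0.11. On means per animal, an exact permutation test within dates was run for each of the 77 genes (14400 splits, 2-sided, smallest possible p 6.94e-05). Without adjustment for the 77 tests, it gave p = 0.00347 for Mrps9 at -0.41, the smallest, and p = 0.0075 for Mrps2 at -0.33. Mrps10, Mrpl19, Mrps15, Mrps30, Mrps34 and Mrpl42 also had an exact p under 0.05, all of them lower in NIC hepatocytes. The share of all genes with such a p is not given, so this does not set the members apart. In limma, Mrps9 differed by -0.15 without the 3 NIC 21 h libraries of low depth (adjusted p = 0.641). Without these libraries Mrpl42 differed by -0.20 and Mrps15 by -0.15, against -0.58 and -0.39 with them. Mrps10, Mrpl19, Mrps2, Mrps34 and Mrps30 then differed by -0.42, -0.38, -0.30, -0.26 and -0.24. With array weights Mrps9 differed by 0.11 (adjusted p = 0.808), and Mrpl42, Mrps15 and Mrps10 by -0.09, -0.13 and -0.08. Mrpl19, Mrps2, Mrps34 and Mrps30 then differed by -0.26, -0.22, -0.19 and -0.11. Within date A 0 members were called, and within date B 1 was, Mrps18b, lower in NIC hepatocytes (2.56% of all genes). No gene on the other mitochondrial lists was called over all libraries.

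At single culture times up to 3 h, 0 members were called at 0, 1 or 3 h, or at 2 h with or without dexamethasone, where 0% of all genes were called in each. The spread in these tests was estimated over all libraries, the 3 of low depth included, so 0 calls do not show that levels were equal. At an unadjusted p under 0.05 there were 2 members at 0 h (1.33% of all genes) and 0 at 1 h (0.826%), 3 h (3.03%), 2 h with dexamethasone (1.6%) and 2 h without it (2.9%). Medians were 0.13 at 0 h, 0.07 at 1 h and 0.08 at 3 h, against 0.02, -0.01 and -0.07 over all genes. Mrpl9 at 0 h measured 38.7, 53, 34.7, 33.6 and 42.2 ppm in NIC hepatocytes, against 30.5, 27.5, 27.4, 30.4 and 19.3 ppm in TA hepatocytes. The groups did not overlap for this gene (0.745% of all genes at 0 h), the log2 difference was 0.56 ± 0.19, and the adjusted p was 1 in limma. At 1 h only Mrpl23 was separated, higher in NIC hepatocytes (0.727% of all genes), and at 3 h only Mrpl40, lower in NIC hepatocytes (0.97%). At 2 h with dexamethasone, where reads could be recovered, members had 5 to 171 reads a library. An edgeR quasi-likelihood test called 0 of 77 and gave 5 an unadjusted p under 0.05. Of all 8621 genes in that test, 1 was called and 655 had an unadjusted p under 0.05.

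At 21 h, 11 members were lower and 0 higher in NIC hepatocytes, where 5.34% of all genes were called, 3.94% lower and 1.4% higher. At an unadjusted p under 0.05 there were 24 lower and 1 higher, with 22.4% of all genes. The median was -0.43, against -0.14 over all genes. The 11 were Mrpl42, Mrps9, Mrpl14, Mrpl54, Mrps6, Mrpl55, Mrpl50, Mrpl3, Mrps23, Mrps36 and Mrpl33, with log2 differences of -2.73 to -1.42. Mrpl42 had 20.9, 102, 15.8, 0 and 0 ppm in NIC hepatocytes and 46.8, 62, 89.9, 67.1 and 24.8 ppm in TA hepatocytes. NIC animals 11, 13, 14 and 15 lay below all TA animals and NIC animal 12 above them, so that the groups overlapped. The log2 difference was -2.73 ± 0.55 (limma, adjusted p = 0.00392). None of the 77 genes separated the groups (0.539% of all genes did).

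These calls went with the 3 NIC libraries of low depth. Without them 0 of 77 members and 0 of all genes were called, with a median of -0.17, against -0.19 over all genes. The NIC libraries left were all of date A and the TA libraries of both dates, so 0 calls among fewer libraries do not show equal levels. Mrpl42 then differed by -0.39 (limma, adjusted p = 0.85), and Mrpl55, Mrpl3 and Mrpl33 were positive at 0.31, 0.28 and 0.14. Within date A, with 1 of the 3 libraries, 0 members were called. Within date B, where both NIC libraries are of low depth, 16 were lower (21.8% of all genes called in either direction). Leaving out TA animal 4, TA animal 5, NIC animal 14 or NIC animal 15 left 3, 4, 5 and 3 members called, and leaving out NIC animal 13 left 20. The share of all genes called in each of these fits is not given, so the counts are not specific to the members. The summed Kupffer cell and stellate cell markers of these 3 libraries, given above, moved with them, as did summed sinusoidal endothelial markers, at 136 to 613 ppm in the 3 and 58.7 to 224 ppm in the other 7 libraries of 21 h. In NIC against TA at 21 h, all 10 Kupffer cell, all 5 stellate cell and fibroblast and all 12 endothelial markers tested had positive differences (1, 3 and 0 called). The part of depth and of other cells in the difference was not tested.

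**Figure D4:**
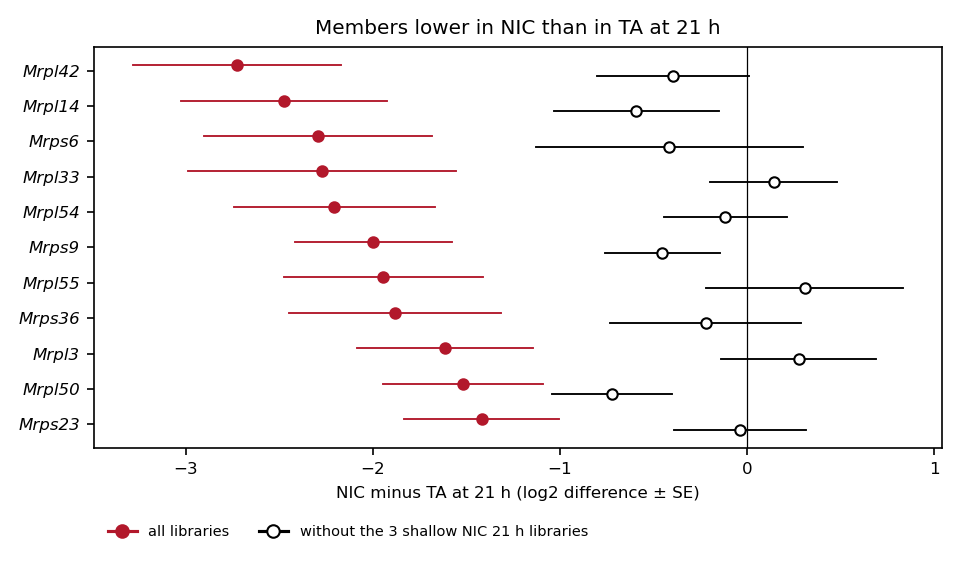
Log2 difference of NIC against TA hepatocytes at 21 h (± SE) for the 11 genes called lower, with all libraries and without the 3 NIC libraries of low depth. Mrpl42 lies at -2.73 with all libraries and at -0.39 without the 3, where Mrpl55, Mrpl3 and Mrpl33 are positive.

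In the 21 h none culture, 1 member was lower in NIC hepatocytes, where 3.38% of all genes were called, 2.34% lower. This was Mrpl22, a large subunit protein of the peptide tunnel in bacteria, at 10.3, 40.8, 11.9, 0 and 3.08 ppm in NIC hepatocytes and 55.5, 60.5, 49.4, 48.9 and 24.3 ppm in TA hepatocytes. NIC animal 12 was within the TA range and the other 4 libraries below it. The log2 difference was -2.54 ± 0.60 (limma, adjusted p = 0.0228). Within date A it was -1.62 (adjusted p = 0.28) and within date B -4.02 (adjusted p = 0.058). The median of the members was -0.45, against -0.47 over all genes, and 0.02 with median-of-ratios scaling. Leaving out the 3 NIC 21 h libraries, which are not in this contrast, called 15 members lower (16% of all genes called in either direction), and leaving out the date B NIC 21 h none library as well called 1 (0.44%). Leaving out TA animal 1, 2 or 4, or NIC animal 11 or 15, called 0, and leaving out TA animal 5 or NIC animal 13 called 10. For fits that leave out 1 animal, shares of all genes called are not given.

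Whether the change in culture differed with the father was tested as an interaction. At 21 h against 0 h, 0 members were called (0.198% of all genes) and 24 had an unadjusted p under 0.05 (14.4%), with the smallest adjusted p for Mrps9, at -2.18 ± 0.56 (limma, adjusted p = 0.0686). Leaving out NIC animal 13 called 9 and NIC animal 12 called 7, without a share over all genes for these 2 fits. Within date B 12 were called (9.79% of all genes). At 21 h none against 0 h, 0 were called (0.00898% of all genes) and 14 had an unadjusted p under 0.05 (17.5%). Mrpl22, Mrps30 and Mrpl9 had the smallest p there, with differences of -3.09 ± 0.80, -1.23 ± 0.35 and -0.88 ± 0.26 (limma, adjusted p = 0.2 for each). The counts given above for NIC and for TA hepatocytes alone are therefore not shown to differ.

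Mrps22 and Mrps34, mitochondria-specific small subunit proteins whose human genes are mutated in mitochondrial disease, were called in no comparison with all libraries. In NIC against TA hepatocytes at 21 h none Mrps22 differed by -1.04 ± 0.40 (limma, adjusted p = 0.0892), with an adjusted p of 0.0448 without the 3 NIC 21 h libraries and 0.0328 within date B. At 21 h none against 21 h Mrps22 was called higher within date A (1.29), in TA hepatocytes alone (0.92) and with array weights (1.06), and at 21 h none against 0 h in the same 3 settings (0.90, 0.81 and 0.67). Mrps34 was called lower at 21 h none against 0 h with median-of-ratios scaling (-0.90), with array weights (-0.49) and without the libraries of low depth (-0.47). At 21 h Mrps22 had 11.4, 24 and 67.3 ppm (lowest, median and highest), against 16.3, 25.9 and 38.3 ppm at 0 h, and differed by -0.05 ± 0.26. Mrps34 had 0, 32.7 and 64.8 ppm at 21 h, against 19.2, 26.7 and 34.5 ppm at 0 h, and differed by -0.25 ± 0.35. Mrpl12 differed by -0.51 ± 0.34 at 21 h and by -0.63 ± 0.34 at 21 h none against 0 h (limma, adjusted p = 0.204 and 0.0972). Between NIC and TA hepatocytes over all libraries, Mrpl12 differed by 0.16 ± 0.24, Mrps12 by 0.02 ± 0.22, Mrps22 by -0.22 ± 0.18, Mrps34 by -0.28 ± 0.24, Mrpl44 by -0.03 ± 0.15 and Mrps36 by -0.50 ± 0.28.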

How the data were processed

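RNA-Seq values for hepatocytes of 20 mice (60 libraries) were taken as the authors deposited them. Per the labels and the study's methods, libraries were rRNA-depleted and strand-specific, and Bowtie2, DESeq2 and the build mm10 are named. Versions, the read counter, its strand setting and the annotation are not given in the sources used here. The deposited values of date C were CPM, from which whole reads were recovered (all values within a tolerance of 0.05 of a whole number), and the other deposited values were TPM, with unknown absolute depth. No column of the authors' own comparisons was used, and 0 columns were left unmapped.

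Genes with a mean above 1 (11135) were tested on log2(value + 1) with limma 3.58.1 in R 4.3.3 (intensity trend, Benjamini-Hochberg adjustment, threshold 0.05). Fold changes on this scale understate changes of low genes. The unit does not permit the count test of the study. All 60 libraries entered each fit, with terms for father, culture and date and with the animal as a random block through statmod 1.5.0, because the same animals gave several cultures (consensus correlation 0.0974 for the comparison over all libraries and 0.108 for single cultures). Animal numbers came from the study's source data, titles and, for 1 library, elimination. Limma p-values rest on a residual spread per gene that all libraries share. Exact p-values measure the spread between these animals. Single genes were tested by exact permutation over animals, and recovered reads with edgeR 4.0.16. The script was tested on simulated data.

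Members and gene lists were chosen with earlier results of these data known. Named genes were those of smallest p per direction among the called, up to 10 (without calls, 3 of smallest p per direction, given as values where described), the 5 highest and 3 lowest at 0 h, the 3 of largest SD in TA animals, 6 genes of known role, and up to 4 per list. The lists covered regulators of biogenesis, translation factors, assembly factors, aminoacyl-tRNA synthetases, DNA maintenance, transcription and RNA stability, proteins named otherwise, and cell markers. Alternatives changed the pseudocount, filter, scaling, block, trend, weights, adjustment and libraries.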

Additional observations from a re-analysis of the deposited data

Results flagged for a closer look

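In groups of 5 libraries, the highest or lowest library lay farther from the others than Dixon's limit allows in 5 of 90 groups examined, and chance gives about 1 in 20 groups. The summed level of the 77 genes in NIC animal 14 at 0 h was 2444 ppm, with the other 4 NIC animals at 2718 to 2814 ppm. Mrpl9 in TA animal 5 at 0 h was 19.3 ppm, with the others at 27.4 to 30.5 ppm. This animal was among those that separated NIC from TA hepatocytes for Mrpl9. Mrpl18 in NIC animal 15 at 1 h was 57.0 ppm, with the others at 81.7 to 85.3 ppm. Mrps21 in TA animal 2 at 3 h was 185.8 ppm, with the others at 108 to 115 ppm. Mrpl42 in NIC animal 12 at 21 h was 101.7 ppm, with the others at 0 to 20.9 ppm, and 3 of those 4 others are the libraries of low depth.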

How the results depend on the processing

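Of 232 counts of called members under another setting, 199 stayed within 1.5 times the reported count. Many of the 199 were counts of 0 that stayed 0, so this share does not measure how stable the other counts were. Relative depth was lowest, at 0.0242 to 0.0898, in the 3 NIC 21 h libraries of animals 11, 14 and 15. The cause of the changes that follow was not tested. Most counts in this section stand without the share of all genes called under the same setting. That share moved between settings as well, so the counts are not specific to the members. For NIC against TA at 21 h, 5 members were called with a pseudocount of 5, and 0 with array weights, Holm adjustment, within date A, without the 3 libraries of low depth, or without these and the date B NIC 21 h none library (a setting chosen after seeing the data, as were NIC or TA libraries alone and edgeR). The 21 h none cultures gave 5 members called with a pseudocount of 5, 2 with no replicate block, 2 with animal numbers from titles, 3 with array weights, 15 without the 3 libraries, 0 within date A, 3 within date B and 0 with Holm. Over all libraries 1 was called within date B, and for the interaction at 21 h 12 were. At 3 h against 0 h, 1 was called with array weights. At 21 h against 0 h, 13 were called within date A, 2 with Holm and 14 in TA libraries alone. At 21 h none against 0 h, 51 were called with array weights, 4 within date B, 5 with Holm, 46 without the 3 and the date B library, and 8 in NIC libraries alone. At 21 h none against 21 h, 11 were called with median-of-ratios scaling, 19 without the 3 libraries, 12 within date B, 1 with Holm and 2 in NIC libraries alone.

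Without the replicate block, 22 members were called at 21 h against 0 h, 27 at 21 h none against 0 h, 29 at 21 h none against 21 h and 11 for NIC against TA at 21 h, and over all genes 284 were called for NIC against TA, against 22 with it. Leaving out 1 animal gave 0 to 1 called over all libraries, 3 to 20 for NIC against TA at 21 h, 0 to 10 at 21 h none, 19 to 26 at 21 h against 0 h, 22 to 34 at 21 h none against 0 h, 20 to 38 at 21 h none against 21 h, and 0 to 9 and 0 to 1 for the interactions at 21 h and 21 h none. Of 1602 settings of single members, 1315 kept their side of the threshold, 279 lost it, 2 gained it and 6 reversed. NIC against TA at 21 h reversed for Mrpl55 (0.31 without the 3 libraries, 0.27 also without the date B library) and for Mrpl3 (0.28, 0.35, and 0.31 within date A), and Mrps18b at 21 h none against 21 h reversed within date B (-0.064). Median-of-ratios scaling moved the median of all genes at 21 h against 0 h from 0.12 to -0.02, at 21 h none against 0 h from 0.49 to 0.10, and for NIC against TA at 21 h none from -0.47 to -0.05.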
